A study of Mus musculus with 4 samples.

Results

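The Kv3 potassium channel subunit genes Kcnc1, Kcnc2 and Kcnc4 were read by exact symbol from the count table of every library, and all 3 were found among 32531 gene names. The libraries hold RNA bound to ribosomes in the deep nuclei of the cerebellum, whose neurons carry its output. It was pulled down from adult transgenic mice of the Slc17a6-EGFP/Rpl10a line JX883, in which an EGFP-tagged ribosomal protein marks the cells that drive the Slc17a6 transgene. Slc17a6 encodes a vesicular glutamate transporter. There is 1 group of 4 immunopurified libraries, each pooled from 3 untreated mice. The labels give neither strain nor exact age and do not say how mice were divided, so a p-value here measures the spread between these libraries, which may be partly technical. Unpurified tissue RNA and a second cell type were not analysed here, so the results are levels within the pulldown and not enrichments.

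Kv3 channels are tetramers that open at depolarised voltages and close quickly, which ends the action potential early and lets a neuron fire again after a short pause. Kcnc1 encodes Kv3.1 and Kcnc2 encodes Kv3.2, both delayed rectifiers. Kcnc4 encodes Kv3.4, whose current inactivates rapidly when expressed alone. Subunits of the family can assemble together in one channel. Kv3 channels are known for fast-spiking neurons, and neurons of the cerebellar nuclei fire fast and spontaneously.

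Because the genes are related, the coding stretch around the selectivity filter, the part of the pore that picks potassium, is shown to let a reader see how far reads of one gene can resemble another. Each stretch is 60 bases of a coding exon, read 5′ to 3′ on the strand of the gene from GENCODE transcripts on GRCm38 (mm10), and the capitals mark the 18 bases of the filter codons.
Kcnc1: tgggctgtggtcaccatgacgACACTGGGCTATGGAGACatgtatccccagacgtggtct
Kcnc2: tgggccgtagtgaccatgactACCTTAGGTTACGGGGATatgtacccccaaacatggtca
Kcnc4: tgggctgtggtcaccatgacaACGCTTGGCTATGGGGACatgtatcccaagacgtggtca
The Kcnc1 stretch lies in exon 2 at chr7:46427952-46428011 on the plus strand, the Kcnc2 stretch in exon 3 at chr10:112456208-112456267 on the plus strand and the Kcnc4 stretch in exon 2 at chr3:107447775-107447834 on the minus strand. Kcnc1 and Kcnc4 differed at 6 of the 60 bases, Kcnc1 and Kcnc2 at 15, and Kcnc2 and Kcnc4 at 14. Over the whole annotated transcripts, beyond the stretches shown, the longest exactly shared run was 29 bases between Kcnc1 and Kcnc2, 29 between Kcnc1 and Kcnc4, and 21 between Kcnc2 and Kcnc4. Of all 50-base words in the annotated transcripts, 0 of 7182 for Kcnc2 and 0 of 3618 for Kcnc4 occurred in a transcript of another gene on either strand. For Kcnc1 it was 55 of 9401, or 0.585%. At that word length, therefore, no word is shared between the members. The 55 words of Kcnc1 occur in transcripts of genes outside the 3. No exon of the 3 genes overlaps an exon of another annotated gene on either strand, so no annotated antisense gene shares their reads.

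Kcnc1 (ENSMUSG00000058975.7) lies on chromosome 7 at 46396497 to 46438704, Kcnc2 (ENSMUSG00000035681.7) on chromosome 10 at 112271121 to 112467024 and Kcnc4 (ENSMUSG00000027895.9) on chromosome 3 at 107438303 to 107459552. The annotation gives Kcnc1 3 transcripts, Kcnc2 5 and Kcnc4 1. The union of exons is 9458 bases for Kcnc1, 7138 for Kcnc2 and 3667 for Kcnc4, whereas the coding bases number 1784, 2306 and 1884. The counts are per gene, so splice forms with different C termini, which Kcnc1 and Kcnc2 are known to have, were not separated.

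Counts in genes totalled 9621762, 10306407, 10436291 and 10988373 in replicates 1 to 4. The share of gene counts taken by Rn45s, the ribosomal RNA precursor, was 4.99, 14.2, 13.6 and 4.92%. Slc17a6 ranged from 2011 to 2309 counts per 1000000 gene counts (CPM) and Rpl10a, the gene of the tagged protein, from 116 to 202 CPM. Of 7 markers of glutamatergic nuclear neurons, all 7 reached 1 CPM in every library, with a summed level of 2466 to 3004 CPM led by Slc17a6. Markers of other cells were also present. Their summed levels ran from 73.8 to 369 CPM for 5 inhibitory nuclear neuron genes, 463 to 1103 for 6 granule cell genes, 1158 to 3279 for 6 Purkinje cell genes and 98.2 to 161 for 5 molecular layer interneuron and Golgi cell genes. They ran from 434 to 995 CPM for 5 oligodendrocyte genes, 20.8 to 52.5 for 3 oligodendrocyte precursor genes, 104 to 256 for 5 astrocyte and Bergmann glia genes, 9.61 to 31.6 for 4 endothelial genes and 4.16 to 14.3 for 5 microglia genes. The Purkinje sum came mostly from Itpr1 (mean 886 CPM) and Rgs8 (607). Car8 had a mean of 293 CPM, Calb1 40.7, Ppp1r17 21.8 and Pcp2 6.99. The inhibitory, granule, Purkinje, interneuron, astrocyte, oligodendrocyte, oligodendrocyte precursor and microglia sums were each highest in replicate 3. The glutamatergic sum was highest in replicate 4 and the endothelial sum in replicate 1. Cells other than nuclear neurons also use Kv3 channels, granule cells and interneurons among them. The part of each of these cell types in the Kv3 counts, Purkinje cells included, was not tested. In these bulk libraries fewer cells of a type and less RNA per cell cannot be told apart.

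Kcnc1 was the most abundant of the 3 genes by CPM and the steadiest. It stood at 370, 409, 379 and 409 CPM in replicates 1 to 4, from 3560, 4216, 3956 and 4490 counts. These values span a ratio of 1.11 from the lowest to the highest library, and their coefficient of variation was 5.15%, against 1.57% expected from counting alone. Kcnc1 ranked 351 of 13724 genes by mean CPM.

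Kcnc2 was high in one library. It stood at 157, 102, 97.7 and 89.7 CPM in replicates 1 to 4 (1507, 1053, 1020 and 986 counts). Replicate 1 was above the other libraries beyond counting error, with a 95% exact Poisson interval of 149 to 165 CPM against an upper bound of 109 CPM in replicate 2. Intervals cover counting error only, since reads amplified before sequencing are not independent molecules. The coefficient of variation was 27.3%, against 2.96% from counting.

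Kcnc4 was high in replicates 2 and 3 and low in replicates 1 and 4. It stood at 90.9, 159, 152 and 108 CPM in replicates 1 to 4 (875, 1635, 1585 and 1187 counts), with a coefficient of variation of 26.0% against 2.75% from counting. The libraries with more Kcnc4 were those with more Rn45s, 14.2 and 13.6% of counts against 4.99 and 4.92%. With Rn45s left out of the totals Kcnc4 stood at 95.7, 185, 176 and 114 CPM. Leaving it out raises replicates 2 and 3 the most by construction, so the order of the libraries could not have changed. Replicates 2 and 3 also had the highest sums of inhibitory neuron markers (173 and 369 CPM against 114 and 73.8 in replicates 1 and 4), granule cell markers (575 and 1103 against 514 and 463) and Purkinje cell markers (1634 and 3279 against 1352 and 1158). The same held for the sums of interneuron markers (143 and 161 against 123 and 98.2) and astrocyte markers (138 and 256 against 114 and 104). Of the interneuron and astrocyte genes, however, only Lgi2, Gfap and Slc1a3 were each highest in replicates 2 and 3. In the inhibitory, granule and Purkinje lists all genes but Sox14, Slc17a7 and Rgs8 were. It did not hold for oligodendrocyte markers (653 and 995 against 434 and 899) or oligodendrocyte precursor markers (27.1 and 52.5 against 20.8 and 38.1). Nor did it hold for microglia markers (6.31 and 14.3 against 4.16 and 10.6) or endothelial markers (9.61 and 30.0 against 31.6 and 21.8). The glutamatergic sum, which is mostly Slc17a6, was lowest in replicates 2 and 3 (2494 and 2466 against 2952 and 3004). Slc17a6, Meis2 and Lhx9 were each lowest in replicates 2 and 3, while Lhx2, Tbr1, Spp1 and Irx3 were not. The part of Rn45s and of the cell types of these markers in the Kcnc4 differences was not tested.

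The summed CPM of the 3 genes was 618, 670, 629 and 606 in replicates 1 to 4, with a coefficient of variation of 4.39%. By CPM the sum thus varied less than Kcnc2 or Kcnc4 did alone. Divided by union exon length and scaled to 1000000, the summed level was 399.8, 533, 522 and 442, with a coefficient of variation of 13.5%. On that scale it was 9.99% for Kcnc1, 19.9% for Kcnc2 and 31.1% for Kcnc4. A fixed length cannot change the coefficient of variation of a single gene. By construction the change from CPM comes from the library totals, which are summed per length and leave out genes without a length, Rn45s among them. Kcnc1 makes up most of the summed CPM, and in replicate 1 Kcnc2 was high where Kcnc4 was at its lowest.

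**Figure D1:**
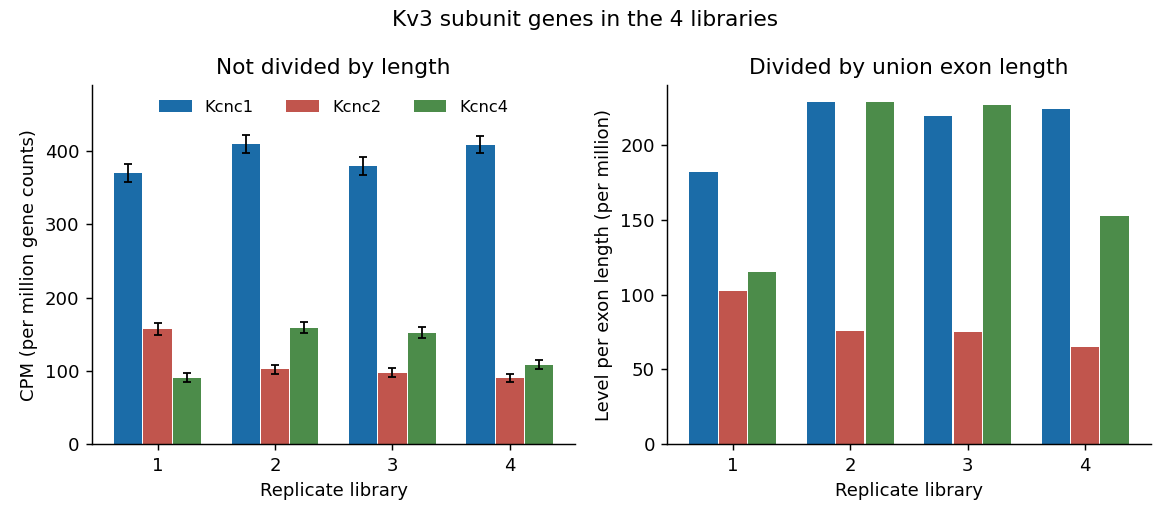
Bars give the value of Kcnc1, Kcnc2 and Kcnc4 in each replicate library, as CPM (left, with 95% exact Poisson intervals) and as level per union exon length per 1000000 (right). Kcnc1 sits between 370 and 409 CPM in every library, Kcnc2 is highest in replicate 1, and Kcnc4 is highest in replicates 2 and 3, where it is about level with Kcnc1 per length.

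Levels of different genes can be compared only per length, so counts were divided by union exon length and scaled to 1000000 per library. On that scale Kcnc1 stood at 182, 229, 220 and 224 in replicates 1 to 4, a mean of 214 ± 21.3 (SD, n = 4). Kcnc4 stood at 115, 229, 227 and 153, a mean of 181 ± 56.3, and Kcnc2 at 102, 75.7, 75.1 and 65.2, a mean of 79.5 ± 15.8. Among 13066 genes with a length, these means placed Kcnc1 at 900, Kcnc4 at 1113 and Kcnc2 at 2695. Of the 3 genes, Kcnc1 was highest in replicates 1 and 4 and about level with Kcnc4 in replicates 2 and 3. Kcnc2 was lowest in all 4 libraries with union exon length only. In replicate 1 it was above Kcnc4 with the longest transcript as length (29.98 against 23.96% of the 3 genes together). The same held there with coding length (20.99 against 14.92%) and by CPM (25.36 against 14.73%).

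The within-library log2 difference of each gene from a Kv3 gene was tested with limma for 13065 genes at a time, so that the adjusted p-values are over all of them. Kcnc2 lay below Kcnc1 by log2 differences of -0.83, -1.59, -1.54 and -1.77 in replicates 1 to 4. The mean was -1.43 ± 0.41 (SD), a 2.70-fold lower level (limma, adjusted p = 0.00149), where 88.5% of all tested genes were lower than Kcnc1 and 3.54% higher. Leaving out any 1 library kept this call, with differences of -1.64 to -1.32.

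Kcnc4 and Kcnc1 were not told apart. Their log2 differences were -0.66, 0.00, 0.05 and -0.55, a mean of -0.29 ± 0.36 (SD) with a 95% interval of -0.87 to 0.29 (limma, adjusted p = 0.273). The interval reaches a lower level of Kcnc4 of nearly 1 on the log2 scale, so it does not show that the levels are alike. The result turns on the length: per coding base the difference was -1.73 (adjusted p = 3.2e-04) and without any length -1.65 (limma, adjusted p = 4.6e-04), both with Kcnc1 higher.

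Kcnc4 lay above Kcnc2 by log2 differences of 0.18, 1.59, 1.59 and 1.22, the smallest in replicate 1. The mean was 1.14 ± 0.67 (SD), a 2.21-fold higher level (limma, adjusted p = 0.0129), where 12% of tested genes were higher than Kcnc2 and 68.6% lower. The call was lost with the longest transcript as length (0.65, adjusted p = 0.101) and with coding length (0.48, adjusted p = 0.196). It was also lost by CPM (0.19, adjusted p = 0.606) and when replicate 2 was left out (1.0, limma, adjusted p = 0.0694). By CPM, with the longest transcript and with coding length the sign differed between libraries. In each case Kcnc2 was above Kcnc4 in replicate 1 and below it in the other 3. With 4 libraries, the smallest p that exact sign flips allow for a pair is 0.125.

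**Figure D2:**
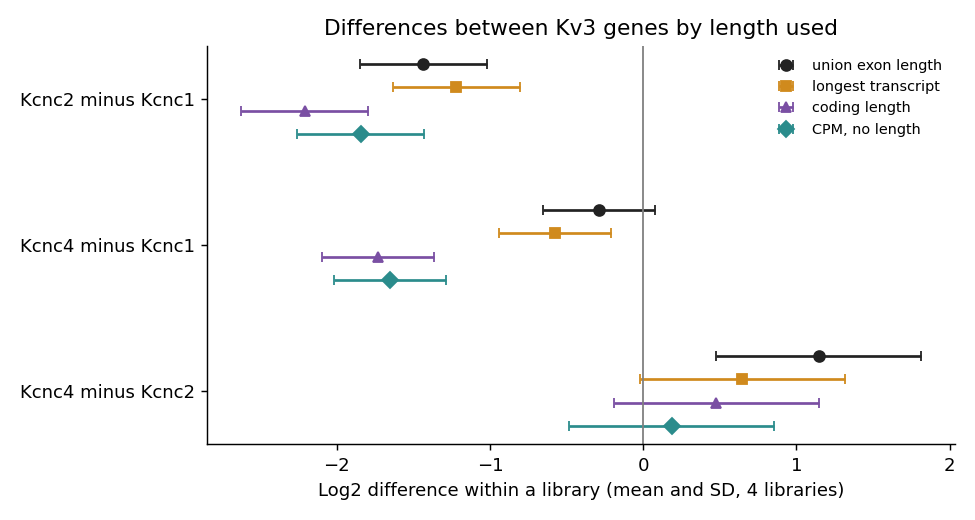
Points give the mean log2 difference between Kv3 genes within a library and bars the SD over the 4 libraries, for 4 ways of dividing counts by length. Kcnc2 lies below Kcnc1 with each of them (-2.21 to -1.22), whereas the differences of Kcnc4 from Kcnc1 (-1.73 to -0.29) and from Kcnc2 (0.19 to 1.14) depend on the length used.

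As a share of the level of the 3 genes together, Kcnc1 made up 45.6, 42.9, 42.1 and 50.7% in replicates 1 to 4. Kcnc4 made up 28.9, 42.9, 43.5 and 34.6%, and Kcnc2 25.6, 14.2, 14.4 and 14.7%. The Kcnc2 share was close to constant in replicates 2, 3 and 4 and higher in replicate 1. That library also had the smallest share of reads with no feature, 14.1% against 19.3 to 21.1% in the others, and the part of this in the Kcnc2 share was not tested. Replicate 1 had the lowest sums of oligodendrocyte markers (434 CPM against 653 to 995), oligodendrocyte precursor markers (20.8 against 27.1 to 52.5) and microglia markers (4.16 against 6.31 to 14.3), and the highest of endothelial markers (31.6 against 9.61 to 30.0). Its sums for the 6 other marker lists lay within the range of the other libraries. The part of these cells in the Kcnc2 share was not tested either.

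Each library was then set against the other 3 with edgeR's quasi-likelihood test over 15083 genes. None of the 3 genes was called in any library (0 of 12 tests, and 0 of 12 at an unadjusted p under 0.05), and DESeq2 called 0 of 12 as well, also 0 of 12 unadjusted. With replicate 4 left out, Kcnc4 in replicate 1 had an unadjusted p of 0.00916 (log2 fold change -0.94, edgeR, adjusted p = 0.448), the 1 of 84 member alternatives with an unadjusted p under 0.05. Few genes were called at all, 0.0199% for replicate 1, 0% for replicates 2 and 3, and 0.0464% for replicate 4, in either direction. For replicates 2 and 3, 78 and 1058 genes had an unadjusted p under 0.05 and DESeq2 called 7 and 81. The largest log2 fold change of a member was that of Kcnc4 in replicate 1, -0.81 ± 0.43 (SE, edgeR, unadjusted p = 0.0826, adjusted p = 1), and 34.2% of all tested genes differed by more there. Kcnc2 in replicate 1 had a log2 fold change of 0.50 ± 0.39 (SE) and Kcnc1 one of -0.31 ± 0.38. In replicate 2 Kcnc4 stood 0.43 ± 0.51 higher and in replicate 3 0.37 ± 0.45 higher on the same scale. In replicate 4 the changes were 0.23 ± 0.29 for Kcnc1, -0.23 ± 0.36 for Kcnc2 and -0.17 ± 0.41 for Kcnc4. Each test sets 1 library against 3 of the same group, so a gene that was not called is not shown to be alike between libraries.

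The spread itself was set beside that of 8845 genes with a mean of at least 10 CPM. The SD of log2 CPM over the libraries was 0.07 for Kcnc1, 0.36 for Kcnc2 and 0.39 for Kcnc4, and the median gene had 0.43. Of these genes, 0.938% had a smaller SD than Kcnc1, 37.4% a smaller one than Kcnc2 and 42.6% a smaller one than Kcnc4. These ranks depend on the scaling. With TMM-scaled CPM, 6.53% of genes had a smaller SD than Kcnc1 (0.16), 20.2% than Kcnc2 (0.26) and 51.8% than Kcnc4 (0.44). Per exon length the shares were 5.41, 22.6 and 57.7%. Kcnc1 remained the steadiest of the 3 and Kcnc4 the least steady under each of the 4 scalings tried, which were chosen after seeing the data.

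**Figure D3:**
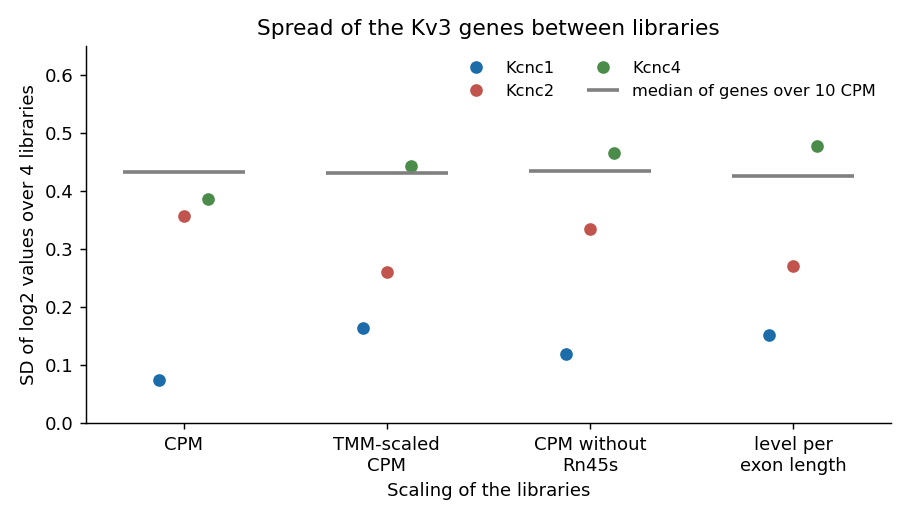
Points give the SD of log2 values over the 4 libraries for each Kv3 gene, under 4 scalings of the libraries, and grey lines the median SD of genes with at least 10 CPM. Kcnc1 is lowest under each scaling (0.07 to 0.16), and Kcnc4 passes the median line under 3 of the 4.

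Among 39 voltage-gated potassium channel alpha subunit genes examined, Kcnc1 had place 3, Kcnc4 place 5 and Kcnc2 place 9 by level per length. Together the 3 made up 20.1, 24.7, 20.3 and 18.0% of the summed level of the 39 genes in replicates 1 to 4. Of the 36 genes outside Kv3, 31 had enough counts to test, and 2 were higher than Kcnc1, 28 lower and 1 did not pass (limma; median log2 difference -4.54, against -3.27 over all 13065 genes). Against Kcnc4, 2 were higher, 26 lower and 3 did not pass (background 3.71% higher and 83.2% lower), and against Kcnc2, 4 were higher, 21 lower and 6 did not pass. The counts against each Kv3 gene are near the shares over all genes. Those shares are 3.54% higher and 88.5% lower against Kcnc1, and 12% higher and 68.6% lower against Kcnc2. These tests share the spread of the gene they are set against.

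The genes above Kcnc1 were Kcna1 and Kcna2, the Kv1 subunits of axons that limit repetitive firing. Kcna1 stood at 486 ± 132 per length, a log2 difference of 1.15 ± 0.36 from Kcnc1 (limma, adjusted p = 0.00335). Kcna2 stood at 352 ± 82.4, a difference of 0.69 ± 0.33 (adjusted p = 0.0261). Kcng4, a subunit that forms no channel alone and modifies other Kv channels, was next to Kcnc1 at 210 ± 79.6 and was not told apart from it (-0.12 ± 0.52, limma, adjusted p = 0.685). It was not told apart from Kcnc4 either (0.17, adjusted p = 0.661).

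Kcna6, another Kv1 gene, stood at 119 ± 32.5 per length and was lower than Kcnc1 (-0.88, limma, adjusted p = 0.00879). Around Kcnc2, the neighbours Kcnd2, an A-type channel gene at 97.1 ± 28.3, and Kcnh2, an ERG channel gene at 73.1 ± 6.40, did not differ from it beyond the spread (0.26 and -0.11, adjusted p = 0.479 and 0.732). At the low end, 25 of the 39 genes reached 1 CPM in all libraries and Kcna7 had no count in any of them. A count of 0 allows a level of up to 3 counts, which is 0.312, 0.291, 0.287 and 0.273 CPM in the 4 libraries.

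**Figure D4:**
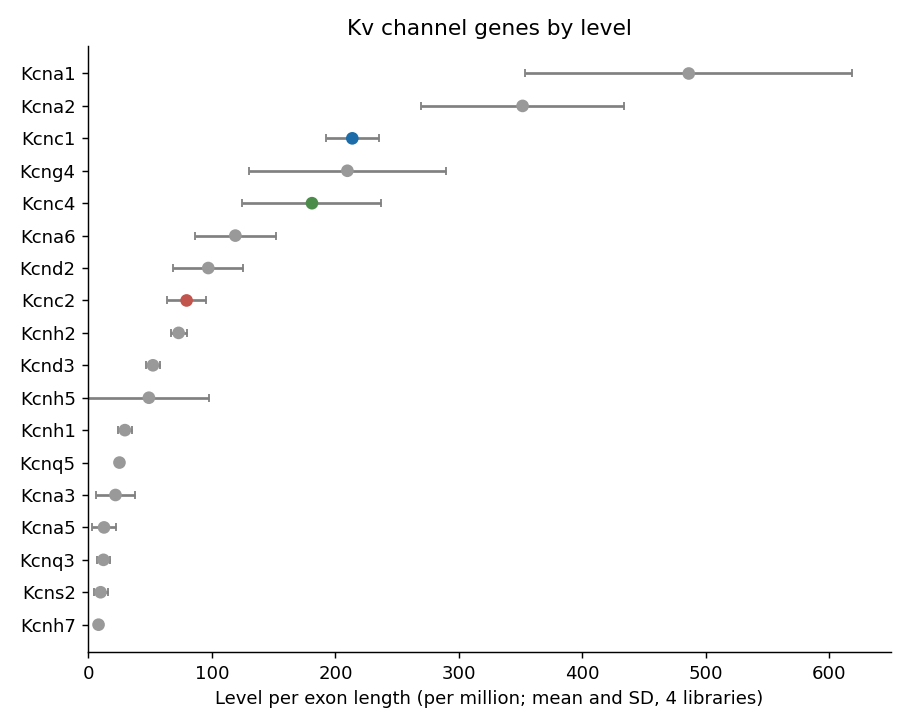
Points give the level per union exon length (mean, bars SD, 4 libraries) of 18 of the 39 voltage-gated potassium channel genes examined, with the Kv3 genes in colour. Kcna1 and Kcna2 lie above Kcnc1, Kcng4 lies between Kcnc1 and Kcnc4, and Kcnc2 lies beside Kcnd2 and Kcnh2.

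Another list, which shares Kcna1, Kcna2 and Kcna6 with the potassium channel list, held sodium channel, Kv1 and associated genes of fast firing. Of its 14 genes, 4 were higher than Kcnc1, 4 lower and 6 did not pass (limma; median log2 difference 0.29, against -3.27 over all genes, of which 3.54% were higher and 88.5% lower). Against Kcnc2, 10 were higher, 2 lower and 2 did not pass (median 1.72, against -1.84 over all genes, with 12% higher and 68.6% lower). Against Kcnc4, 5 were higher, 2 lower and 7 did not pass (median 0.58, against -2.98, with 3.71% higher and 83.2% lower). Pvalb, a calcium buffer of fast-spiking neurons, was the highest at 637 ± 285 per length, with Kcna1, Kcna2 and Scn2b also among the 5 highest. Scn2b, a sodium channel beta subunit gene, stood at 338 ± 51.6 and was higher than Kcnc1 by 0.65 ± 0.22 (limma, adjusted p = 0.0236). The lowest was Kcnab1, a Kv1 beta subunit gene, at 25.4 ± 4.92.

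Of 19 genes listed as regulators, partners or carriers of Kv3 and related channels, 16 could be tested, and 2 were higher than Kcnc1, 10 lower and 4 did not pass (limma; median log2 difference -2.31, against -3.27 over all genes, of which 3.54% were higher and 88.5% lower). Against Kcnc2 the counts were 6, 8 and 2 (median -0.88 against -1.84, with 12% of all genes higher and 68.6% lower). Against Kcnc4 they were 2, 9 and 5 (median -2.02 against -2.98, with 3.71% higher and 83.2% lower). The highest were the kinesin heavy chain genes Kif5a at 533 ± 104 per length and Kif5c at 485 ± 88.3, whose family carries Kv3.1 along axons. The protein kinase C genes Prkcb at 314 ± 74.6 and Prkce at 218 ± 12.7 were also among the 5 highest, and this kinase family is known to modulate Kv3 currents. Prkce was not told apart from Kcnc1 (0.03 ± 0.08, limma, adjusted p = 0.886). Kcne1 and Kcne3, small accessory subunits, had no count in any library. In the tests of each library against the other 3, 0 genes of these lists were called, with 0 to 4 of a list at an unadjusted p under 0.05 (edgeR).

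The genes whose CPM followed each Kv3 gene most closely over the 4 libraries were found by the root mean square difference of gene-centred log2 CPM among 8844 genes, as a description with no test. For Kcnc1 they were Mib1, Pdia4 and Atp5s, at 0.02 each against a median of 0.39. For Kcnc2 they were Zrsr1 (0.01), Ubqln1 (0.02) and Mrpl51 (0.02), with Zrsr1 at 133, 86.1, 81.7 and 75.1 CPM in replicates 1 to 4. For Kcnc4 they included St5 (0.02) and Arl2 (0.04), with St5 at 9.04, 16.6, 15.7 and 10.6 CPM.

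Within the potassium channel list, 16 genes were abundant enough for this measure. Kcnq5 (0.10) and Kcnh2 (0.10) were nearest to Kcnc1, and Kcnh7 (0.18) and Kcnd3 (0.23) to Kcnc2. Kcna6 at 95.9, 168, 148 and 132 CPM, was nearest to Kcnc4 (0.12), before Kcnh1 (0.21) and Kcnq5 (0.37). Between the Kv3 genes, Kcnc1 and Kcnc4 differed by 0.32, Kcnc1 and Kcnc2 by 0.36, and Kcnc2 and Kcnc4 by 0.58. Kcnc1 thus lay nearer to Kcnc4 than Kcnq5 did. The nearest genes were picked from 16 by this measure, so larger values between the Kv3 genes are no result about them. The median gene differed by 0.44 from Kcnc2 and by 0.53 from Kcnc4.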

How the data were processed

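Ribosome-bound RNA of 4 libraries was counted. The deposited files hold raw whole-number counts per gene name, made with STAR 2.0.0e and HTSeq on mm10, per the submitters' processing notes. Which annotation, strand setting and library kit were used is not given in the sources used here. Summary rows (14.1 to 21.1% of reads without a feature, 14.2 to 20.6% not unique, 2.04 to 2.94% ambiguous) and an empty row named unknown stayed out of totals. No library was a copy of another, since each pair differed beyond counting noise (chi-square over degrees of freedom, 34.4 to 125).

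Lengths came from GENCODE release M21 on the same build for 95.2% of the 13724 genes with a mean of at least 10 counts. Levels are counts per exon base, scaled to 1000000. Within-library log2(level + 0.5) differences from each Kv3 gene were tested with limma 3.58.1, and single libraries against the rest with edgeR 4.0.16 (R 4.3.3, TMM, filterByExpr, robust quasi-likelihood, 2-sided), with Benjamini-Hochberg adjustment over all tested genes and a threshold of 0.05. The limma and edgeR steps were run on simulated counts beforehand, and DESeq2 1.42.0 was an alternative. Standard errors of edgeR fold changes were derived from the F statistic.

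The members and gene lists were chosen with earlier results of these data known. Named are the 3 members, the 5 highest and the lowest gene of each of the 3 pathway lists, neighbours of a member in the order of levels (chosen after their values were seen), and the 3 genes of most similar pattern. Values of a few of these genes are not reported here, although the counts over each list cover them.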

Additional observations from a re-analysis of the deposited data

Results flagged for a closer look

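The share of Kcnc2 in the level of the 3 Kv3 genes was flagged because 1 library stood far from the others. Replicate 1 was at 25.6% and replicates 2, 3 and 4 lay between 14.2 and 14.7%, so that the gap to the nearest library was 0.951 of the whole range. With union exon length it was the single flag among 13 values examined, where chance flags about 1 in 20. With the longest transcript, coding length or no length in place of union exon length the ratio was 0.970, 0.926 and 0.929, so the library stood apart with each. The Kcnc1 share, at a ratio of 0.597 with union exon length and 0.816 with the longest transcript, also passed the critical value for 4 samples with coding length (0.893) and with CPM (0.846), where replicate 4 was highest. Kcnc2 CPM alone, with a ratio of 0.814, was not flagged, and edgeR did not call Kcnc2 in replicate 1.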

How the results depend on the processing

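No paired analysis was possible because the labels give 1 group. The lower level of Kcnc2 against Kcnc1 held with every length, pseudocount, filter and left-out library tried (adjusted p up to 0.0116), and its exact sign-flip test (-1.43, p = 0.125) cannot pass. Kcnc4 against Kcnc1 passed with coding length (-1.73) and with CPM (-1.65), and ranged from -0.40 to -0.17 with 1 library left out. Kcnc4 against Kcnc2 lost its call with the longest transcript (0.65), coding length (0.48), CPM (0.19) and the sign-flip test (1.14), and with 1 library left out ranged from 1.0 to 1.47, losing its call without replicate 2 (1.0, adjusted p = 0.0694). The changes under another length follow from that length by construction, and the cause of the loss without replicate 2 was not tested.

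The count of genes called for 1 library against the other 3 was unstable. For replicate 1 it was 3, and 26 with DESeq2, 32 without a filter and 7 to 31 with another library left out. For replicate 2 it was 0, and 7 with DESeq2 and 0 to 2 with a library left out. For replicate 3 it was 0, and 81, 86 and 1 to 33. For replicate 4 it was 7, and 380, 416 and 74 to 125, and 0 with totals without Rn45s and no TMM. The cause was not tested. That scaling moved the median log2 fold change of all genes from -0.16 to -0.41 for replicate 4 and from -0.10 to -0.00 for replicate 1.

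The 3 members stayed uncalled in all 84 alternatives of these tests (lowest adjusted p = 0.448, and 1 at an unadjusted p under 0.05). In 5 of them an uncalled value changed sign. With 1 library left out, Kcnc1 in replicate 2 ranged from -0.0087 to 0.19, Kcnc2 in replicate 2 from -0.23 to 0.064 and Kcnc1 in replicate 3 from -0.15 to 0.054. With totals without Rn45s, Kcnc1 was 0.023 in replicate 3 and -0.018 in replicate 4. The lowest count of a member in a library was 875, and each of these tests has 1 library on one side.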
